A study of Arabidopsis thaliana with 30 samples.

Results

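The tau and phi glutathione transferases of Arabidopsis thaliana are 41 genes here, 28 of the tau class (GSTU1 to GSTU28) and 13 of the phi class (GSTF2 to GSTF14). They were taken by gene identifier, not by a measured value, out of 27655 genes in the count matrix, but the family itself was picked with earlier results of these data known. Messenger RNA had been sequenced from whole seedlings 12 days old. One genotype was the wild type Col-0, and the other was ein2-5, a mutant of EIN2, the membrane protein that carries the ethylene signal towards the nucleus. Seedlings of each genotype were left untreated (labelled 0 h), or were overlaid for 3 h or 24 h with liquid MS (the Murashige and Skoog medium), either plain or holding 20 µM of AA. AA is antimycin A, an inhibitor of complex III of the mitochondrial respiratory chain. These 10 groups had 3 libraries each, 30 in all. The labels do not say whether replicates came from separate plates, so p-values measure the spread between these libraries, which may be technical. Their batch entry holds the time, and AA was therefore set against MS at its own time, and a difference between MS and untreated holds the medium, the time and the batch together.

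Glutathione transferases join the tripeptide glutathione to reactive, electrophilic molecules, and the conjugates are then pumped into the vacuole by ABC transporters. The tau and phi classes are the large classes of land plants, and several of their genes are known for rapid induction by herbicides, safeners, oxidants and pathogens. Others have a defined place in metabolism, such as the handling of flavonoids, camalexin and glucosinolates. The series title names mitochondrial stress and ethylene signalling, and the comparisons below ask how this gene family differed with AA, with ein2-5 and with time.

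Library totals ran from 21.2 to 32.6 M read pairs (median 24.3 M). Levels are CPM, read pairs per 1e6 in the library scaled with TMM factors, and comparisons between genes use CPM per kb of exon. Changes are log2 fold changes ± SE from 1 edgeR quasi-likelihood fit to all 30 libraries, and a change was called at a Benjamini-Hochberg adjusted p under 0.05 over 21256 genes. EIN2 itself lay at 85.5 to 123 CPM in the 15 wild-type libraries and at 36.4 to 48.7 CPM in the 15 ein2-5 libraries. AOX1A, the alternative oxidase gene that marks mitochondrial stress, was higher with AA by 2.55 ± 0.15 in wild type and 2.88 ± 0.15 in ein2-5 at 3 h, and by 1.87 ± 0.15 and 1.77 ± 0.15 at 24 h. Replicate 3 of ein2-5 with MS at 3 h stood apart from its group. The chi-square per degree of freedom of its counts against the other replicates was 34.1 to 34.8, against 3.43 to 20.6 for every other pair of replicates. The root and leaf markers of a whole seedling were both present, at 35 to 129 CPM summed over 8 root markers and 38689 to 58861 CPM summed over 8 leaf markers.

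All 41 genes were found in the TAIR10.1 reference by locus code. Of these, 29 lie in 9 tandem clusters, and in each cluster all members are on the same strand. The largest cluster holds GSTU1 to GSTU7 at chr2:12617936-12632538, a span of 14.6 kb on the reverse strand. GSTU19 to GSTU23 lie at chr1:29467412-29488007 on the reverse strand, and GSTU24 to GSTU26 at chr1:5869543-5876620 on the forward strand. The phi cluster GSTF4 to GSTF7 lies at chr1:658578-666471 on the reverse strand. All 28 tau genes have 2 exons in their longest transcript, and 10 of the 13 phi genes have 3. Coding sequences of the 20 pairs of cluster neighbours were 62.3% to 94.7% identical (median 77.2%), with GSTF6 and GSTF7 the closest pair. GSTF2 and GSTF3, on different chromosomes, were 94.5% identical. No run of 150 bases of a member's longest transcript had an exact match elsewhere on the 5 nuclear chromosomes. Runs that cross an exon junction could not match a copy with an intron there.

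The sequences just upstream of 6 genes are shown because these genes carry the contrasts described below. GSTU24 and GSTU25 were higher with AA and their neighbour GSTU26 was lower. GSTU22 was higher and GSTU20 in the same cluster was not called, and GSTU9 had the largest well-counted change. Each run is the 300 bases before the annotated transcript start in TAIR10.1, read 5′ to 3′ on the strand of the gene. Capitals mark TGACG or its reverse complement CGTCA, the core bound by TGA-type bZIP factors, which are known regulators of detoxification genes. The windows are chr1:5869243-5869542 for GSTU24, chr1:5871724-5872023 for GSTU25 and chr1:5874995-5875294 for GSTU26 on the forward strand, and chr1:29474004-29474303 for GSTU22, chr1:29485390-29485689 for GSTU20 and chr5:25089627-25089926 for GSTU9 on the reverse strand.
GSTU24: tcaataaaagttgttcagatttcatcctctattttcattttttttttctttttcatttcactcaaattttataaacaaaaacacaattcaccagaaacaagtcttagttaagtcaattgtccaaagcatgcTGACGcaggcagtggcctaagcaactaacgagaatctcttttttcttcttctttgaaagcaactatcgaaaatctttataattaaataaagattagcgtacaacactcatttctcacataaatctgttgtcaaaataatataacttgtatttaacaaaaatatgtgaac
GSTU25: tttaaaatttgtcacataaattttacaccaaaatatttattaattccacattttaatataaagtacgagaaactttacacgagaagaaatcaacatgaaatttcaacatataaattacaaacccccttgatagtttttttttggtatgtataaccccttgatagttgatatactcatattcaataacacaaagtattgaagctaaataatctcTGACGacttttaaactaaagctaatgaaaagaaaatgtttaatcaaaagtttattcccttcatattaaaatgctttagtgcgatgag
GSTU26: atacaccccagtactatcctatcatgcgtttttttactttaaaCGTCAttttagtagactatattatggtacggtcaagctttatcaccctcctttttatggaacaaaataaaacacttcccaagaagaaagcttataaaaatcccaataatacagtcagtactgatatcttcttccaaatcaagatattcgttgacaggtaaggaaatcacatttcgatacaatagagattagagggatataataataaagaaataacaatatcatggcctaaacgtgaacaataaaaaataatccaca
GSTU22: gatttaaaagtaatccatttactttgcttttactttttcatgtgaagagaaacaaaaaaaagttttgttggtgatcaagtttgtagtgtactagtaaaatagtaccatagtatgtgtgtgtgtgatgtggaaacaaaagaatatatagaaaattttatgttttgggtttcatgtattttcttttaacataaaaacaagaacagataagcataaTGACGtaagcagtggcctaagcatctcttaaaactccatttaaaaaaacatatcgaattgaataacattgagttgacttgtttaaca
GSTU20: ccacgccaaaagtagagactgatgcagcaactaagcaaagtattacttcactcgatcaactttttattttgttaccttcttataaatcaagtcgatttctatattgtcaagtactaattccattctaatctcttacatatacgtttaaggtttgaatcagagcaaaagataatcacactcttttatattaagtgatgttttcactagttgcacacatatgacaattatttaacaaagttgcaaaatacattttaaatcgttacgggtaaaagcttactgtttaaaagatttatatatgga
GSTU9: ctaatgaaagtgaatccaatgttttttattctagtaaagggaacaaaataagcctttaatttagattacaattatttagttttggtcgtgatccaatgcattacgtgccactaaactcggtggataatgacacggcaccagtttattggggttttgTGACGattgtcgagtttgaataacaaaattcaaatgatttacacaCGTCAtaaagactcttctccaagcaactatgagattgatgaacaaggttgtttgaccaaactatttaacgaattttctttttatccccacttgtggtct

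The TGACG core, searched on both strands, was present in the window of 17 of the 41 genes (41.5%), with 13 of 28 tau genes (46.4%) and 4 of 13 phi genes (30.8%). Of the windows of all 27443 nuclear protein-coding genes, 21.3% held it. GSTU22 and GSTU25 each had a core 87 bases upstream of the start, GSTU9 had cores at 144 and 99 bases, GSTU24 at 169 and GSTU26 at 257. GSTU22 and GSTU24, which lie in different clusters, also share the 15 bases gcagtggcctaagca just downstream of the core, at 79 and 161 bases upstream of the start. Of all windows, 2 hold that run. GSTF6 and GSTF7 share caacaacgtcggtca at 123 and 73 bases, again in 2 of all windows. Both shared runs were picked after the sequences had been compared. The letters GCCGCC, the GCC box of ethylene response factors, were found in 3 windows (GSTU10, GSTU12 and GSTU13) and in 2.26% of all windows. CTTGNNNNNCAAG or CTTGNNNNNCACG, the mitochondrial dysfunction motif, was found in 1 window, that of GSTF4, and in 1.37% of all windows. These matches describe the letters in the windows and were not tested as binding sites.

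GSTF9 had the highest mean over the 10 groups at 554 CPM per kb, followed by GSTU19 at 478, GSTU20 at 304, GSTF10 at 268, GSTF6 at 243, GSTF7 at 228 and GSTF8 at 163 CPM per kb. The length counts the exons of all transcripts of a gene. For GSTF8 this was 2.395 kb, which gives a lower value than its longest transcript alone would. GSTU19 is a major tau enzyme known for activity towards herbicide-like substrates, GSTU20 is known to interact with the jasmonate-conjugating enzyme JAR1, and GSTF8 is known as an oxidant-induced gene. In CPM, the 6 highest members of each group held 67.8% to 78.3% of the family's summed level, and the tau class held 39.1% to 47.6% of it. At the low end stood GSTU2, GSTU15 and GSTF11, which did not pass the filter on low counts and were not tested. GSTF11, known for aliphatic glucosinolate synthesis, was listed at 0 in every library, but all of its exon bases overlap the opposite-strand gene AT3G03200. The counting ignored strand, and its recorded settings leave a read pair that falls on 2 genes uncounted. By the TAIR10.1 annotation 12 members share exon bases with another gene, among them GSTU2 (70.4% of its exon bases), GSTU7 (68.9%), GSTF2 (60.5%), GSTU6 (29.9%) and GSTF4 (29.3%). The levels of these genes are uncertain to that extent.

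**Figure D1:**
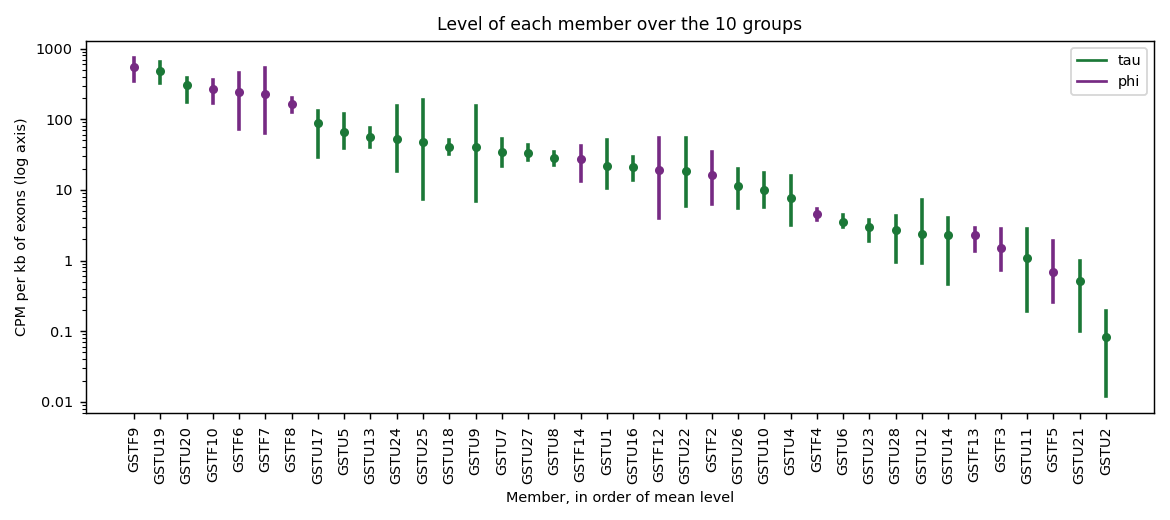
Level of 38 members in CPM per kb of exon on a log axis, in order of mean level. Points are means of the 10 group means and lines run from the lowest to the highest group mean, green for tau and purple for phi. GSTU25 (25.2-fold) and GSTU9 (21.8-fold) had long ranges and GSTF8 (1.56-fold) a short one. GSTU3, GSTU15 and GSTF11 had a group at 0 and are not drawn.

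Some members varied widely over the 10 groups and others little. Between its lowest and highest group mean, GSTU25 ranged 25.2-fold, GSTU9 21.8-fold, GSTF12 13.6-fold and GSTU22 9.2-fold. GSTF8 ranged 1.56-fold, GSTU18 1.56-fold, GSTU8 1.52-fold and GSTF4 1.45-fold. The 4 most abundant members had ranges from 1.99-fold for GSTU19 to 2.16-fold for GSTU20. Summed over the 41 genes, the level was 2500 ± 188 CPM (SD, n = 3) in untreated wild type and 4697 ± 147 CPM in ein2-5 with AA at 3 h, the lowest and the highest group mean.

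With AA at 3 h, part of the family rose strongly, and the rest fell or were not called. Of the 38 members tested, 14 were higher and 5 lower with AA in wild type, where 10.0% of all genes tested were called, 6.20% as higher and 3.80% as lower. In ein2-5, 15 were higher and 3 lower, where 12.8% of all genes were called, 6.62% as higher and 6.22% as lower. Without MS replicate 3 of ein2-5, the library that stood apart, 14 were higher and 2 lower. The 13 members higher in both genotypes were GSTU1, GSTU3, GSTU4, GSTU9, GSTU10, GSTU12, GSTU19, GSTU22, GSTU24, GSTU25, GSTF3, GSTF6 and GSTF7. GSTU26, GSTU28 and GSTF14 were lower in both. The counts describe the members that passed the filter on low counts. They include GSTU3, which had few reads in most libraries other than wild type with AA at 3 h and is described further on without a test value.

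With AA at 24 h, in wild type 10 members were higher and 5 lower (13.0% of all genes called, 6.48% as higher and 6.50% as lower), and in ein2-5 11 were higher and 5 lower (13.9%, 5.90% and 7.95%). The wild-type count of higher members depended on the fit, since a fit of only the groups compared called 16 higher at 3 h and 16 at 24 h. Higher in all 4 comparisons were GSTU1, GSTU9, GSTU10, GSTU22, GSTU24, GSTU25 and GSTF7, and lower in all 4 were GSTU26, GSTU28 and GSTF14. Of the 13 members higher in both genotypes at 3 h, 11 had a smaller log2 fold change at 24 h in both genotypes, the exceptions being GSTU10 and GSTF7. These 13 were picked on their 3 h values, which alone favours smaller values at 24 h. They include GSTU3, whose 3 h value is no measure of size. No AA comparison called 13 tested members, namely GSTU5, GSTU6, GSTU7, GSTU11, GSTU13, GSTU17, GSTU20, GSTF4, GSTF5, GSTF8, GSTF9, GSTF10 and GSTF13. GSTF9, GSTU20, GSTF10 and GSTF8, abundant at every time, were thus among those with no call, which does not show that they were unmoved. In wild type at 24 h GSTF9 stood at 677 to 729 CPM with AA and at 614 to 619 CPM with MS. GSTF10 stood at 272 to 315 against 229 to 261 CPM and GSTU20 at 366 to 428 against 322 to 356 CPM, while GSTF8 libraries overlapped. In ein2-5 at 24 h the libraries of each of these genes overlapped. For 6 of the 13 a call appeared once 1 library was left out. GSTF8 in ein2-5 at 3 h stood at 285, 313 and 527 CPM with MS and at 487, 469.6 and 485 CPM with AA, a change of 0.36 ± 0.14 (adjusted p = 0.0893), and without the high MS replicate 3 it was 0.70 ± 0.10 (adjusted p = 8.25e-06). GSTU13 was called higher in ein2-5 at 3 h without MS replicate 1 (adjusted p = 0.0324), and GSTU20 in wild type at 24 h without AA replicate 2 (adjusted p = 0.0312). At 24 h in ein2-5, GSTU7 was called higher without MS replicate 3 (adjusted p = 0.00118), GSTU5 higher without AA or MS replicate 3 (adjusted p 0.0230 and 0.0274), and GSTF13 lower without MS replicate 2 (adjusted p = 0.0295).

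Members of both classes were called. Of 26 tested tau members, 10 were higher and 3 lower in wild type at 3 h, and 12 and 2 in ein2-5. At 24 h these were 8 and 4 in wild type and 9 and 3 in ein2-5. Of 12 tested phi members, 4 were higher and 2 lower in wild type at 3 h, and 3 and 1 in ein2-5. At 24 h they were 2 and 1 in wild type and 2 and 2 in ein2-5. Of all genes tested, 6.20% were called higher and 3.80% lower in wild type at 3 h, and 6.62% and 6.22% in ein2-5. The shares at 24 h were 6.48% and 6.50% in wild type and 5.90% and 7.95% in ein2-5. Among 12 phi members a count of 1 or 2 is too small to set against these shares. The median log2 fold change at 3 h was 0.29 for tau and 0.22 for phi in wild type, and 0.32 and 0.11 in ein2-5, beside -0.01 for all genes in each genotype. At 24 h it was 0.19 and 0.22 in wild type and 0.25 and 0.07 in ein2-5, beside 0.00 for all genes. A difference between the classes was not tested.

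**Figure D2:**
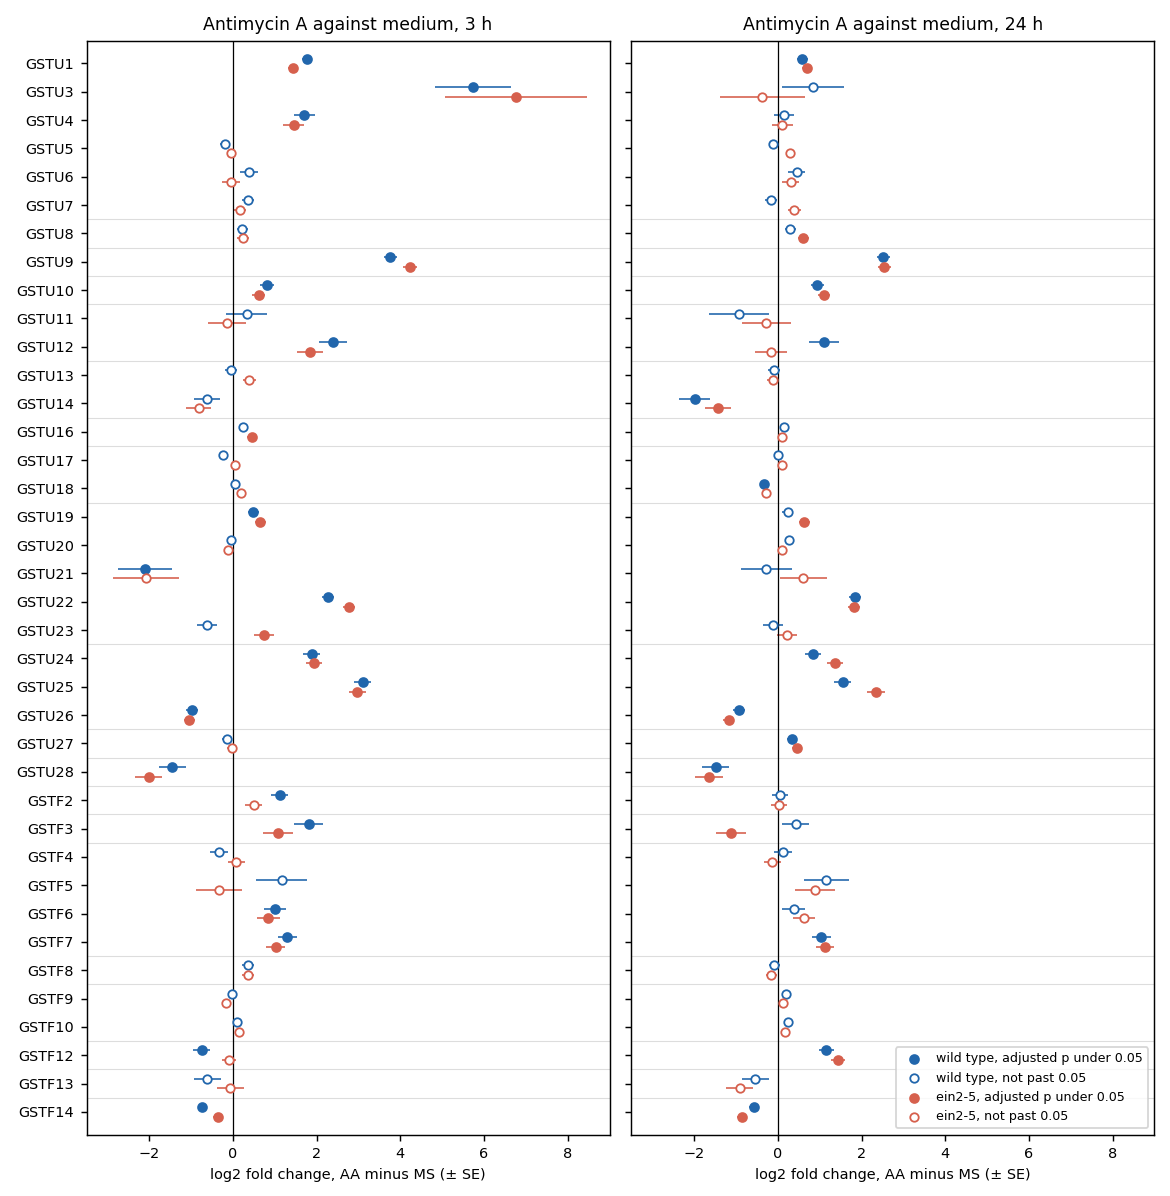
Log2 fold change of AA against MS with its SE (x axis) for the 38 tested members (y axis), at 3 h on the left and 24 h on the right. Blue is wild type and red is ein2-5, filled points are called at an adjusted p under 0.05, and grey lines separate clusters and single genes. GSTU9 stands at 3.76 and 4.22 at 3 h and at 2.52 and 2.55 at 24 h. The GSTU3 values at 3 h rest on MS groups with 5 read pairs in wild type and 0 in ein2-5 and are no measure of size.

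GSTU9 (AT5G62480, chr5:25088527-25089626, reverse strand), a tau gene outside the clusters, gave the largest change of the members counted well above 0 in every group. In wild type at 3 h it stood at 8.16, 5.98 and 7.43 CPM with MS and at 91.2, 93.5 and 109 CPM with AA. In ein2-5 it stood at 8.54, 9.71 and 6.87 CPM with MS and at 154, 154 and 162 CPM with AA. The lowest AA library thus lay far above the highest MS library in both genotypes. This was a 13.6-fold rise in wild type (3.76 ± 0.16, adjusted p = 6.45e-17) and an 18.7-fold rise in ein2-5 (4.22 ± 0.16, adjusted p = 3.16e-18). At 24 h the levels were 9.97, 10.3 and 9.02 CPM with MS against 58.0, 53.8 and 56.4 CPM with AA in wild type, and 7.60, 6.45 and 10.3 CPM against 44.8, 46.2 and 50.9 CPM in ein2-5. The rise at 24 h was 5.73-fold and 5.85-fold.

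In the GSTU24 to GSTU26 cluster, 3 neighbours on the same strand did not move together. GSTU25 (AT1G17180, chr1:5872024-5873124) and GSTU24 (AT1G17170, chr1:5869543-5870883) encode enzymes known to conjugate the explosive TNT. GSTU25 stood at 17.9, 11.1 and 15.8 CPM with MS and at 121, 119 and 147 CPM with AA in wild type at 3 h, and at 21.5, 17.9 and 33.6 CPM against 190.4, 178 and 204 CPM in ein2-5. Its groups did not overlap, and the rise was 8.61-fold (3.11 ± 0.20, adjusted p = 6.64e-13) and 7.84-fold (2.97 ± 0.20, adjusted p = 9.86e-13). At 24 h it was 2.93-fold in wild type and 5.10-fold in ein2-5. GSTU24 stood at 42.0, 29.9 and 31.1 CPM with MS and at 115, 122 and 142 CPM with AA in wild type at 3 h, and at 37.3, 41.2 and 67.3 CPM against 180.2, 176 and 200.3 CPM in ein2-5. The AA libraries were again all above the MS libraries, by 1.88 ± 0.20 and 1.93 ± 0.19 on the log2 scale at 3 h and by 0.85 ± 0.19 and 1.37 ± 0.20 at 24 h.

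GSTU26 (AT1G17190, chr1:5875295-5876620) went the other way. At 3 h it stood at 13.5, 15.03 and 12.5 CPM with MS and at 8.79, 5.15 and 6.89 CPM with AA in wild type, and at 21.3, 21.6 and 19.8 CPM against 10.3, 9.41 and 10.7 CPM in ein2-5. Every AA library lay below every MS library of its genotype. The level fell by 0.98 on the log2 scale in wild type (SE 0.14, adjusted p = 4.06e-06) and by 1.04 in ein2-5 (SE 0.13, adjusted p = 6.52e-07), and at 24 h by 0.92 and 1.18. Coding sequences of GSTU24 and GSTU25 were 80.5% identical, and each was 70.9% identical to GSTU26.

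In the GSTU19 to GSTU23 cluster the strongest rise was that of GSTU22 (AT1G78340, chr1:29472845-29474003). Wild-type libraries at 3 h held 8.97, 8.65 and 8.87 CPM with MS and 42.9, 36.8 and 47.8 CPM with AA, and ein2-5 libraries 6.73, 10.4 and 8.43 CPM against 59.9, 54.0 and 60.9 CPM. There was no overlap, with changes of 2.27 ± 0.14 (adjusted p = 2.02e-13) and 2.77 ± 0.14 (adjusted p = 2.24e-15). At 24 h the changes were 1.84 ± 0.15 and 1.82 ± 0.14. GSTU19, already abundant, rose less. It stood at 442, 418 and 427 CPM with MS and at 666, 621 and 516 CPM with AA in wild type at 3 h, a change of 0.49 ± 0.13 (adjusted p = 0.0114). In ein2-5 it rose by 0.66 ± 0.13 at 3 h and by 0.63 ± 0.13 at 24 h, and in wild type at 24 h it was 0.24 ± 0.13 and not called. The wild-type call at 3 h did not survive the removal of AA replicate 1 (adjusted p = 0.0686) or of MS replicate 2 (0.0522).

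GSTU20, next to GSTU19, was not called at 3 h or 24 h. Its log2 values in wild type were -0.04 ± 0.09 at 3 h and 0.26 ± 0.09 at 24 h, and in ein2-5 -0.12 ± 0.09 and 0.09 ± 0.09. GSTU21 was near the floor, at 1.01, 1.16 and 0.465 CPM with MS and 0.185, 0.227 and 0.191 CPM with AA in wild type at 3 h. It was called lower there (-2.1 ± 0.64, adjusted p = 0.0305), but the call was lost without any 1 of 5 of the 6 libraries, MS replicate 3 being the exception (adjusted p 0.0801 to 0.133). GSTU23 was called higher in ein2-5 at 3 h (0.74 ± 0.25, adjusted p = 0.0415) at levels under 4 CPM, and that call was lost without any 1 AA library and without MS replicate 1 or 3 (adjusted p 0.0521 to 0.146), and in a fit of the 2 groups alone (0.0907). In wild type it was not called, but without AA replicate 3 it was called lower (-0.90 ± 0.27, adjusted p = 0.0295).

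In the GSTU1 to GSTU7 cluster the members split by position. GSTU1, GSTU3 and GSTU4 were called higher with AA at 3 h, while GSTU5, GSTU6 and GSTU7 at the other end were not called with AA at 3 h or 24 h. GSTU1 (AT2G29490, chr2:12631341-12632538) stood at 16.1, 14.3 and 16 CPM with MS and at 53.8, 48.7 and 55.5 CPM with AA in wild type at 3 h, and at 18.3, 22.8 and 21.7 CPM against 57.5, 56.4 and 55.1 CPM in ein2-5. The groups were apart in both genotypes, with changes of 1.77 ± 0.12 (adjusted p = 3.93e-12) and 1.43 ± 0.12 (adjusted p = 2.46e-10), and of 0.58 ± 0.13 and 0.70 ± 0.13 at 24 h. GSTU4 (AT2G29460, chr2:12626478-12627891) stood at 6.98, 4.77 and 5.15 CPM with MS and at 20.9, 15.8 and 18.6 CPM with AA in wild type at 3 h, and at 3.65, 4.11 and 6.70 CPM against 11.1, 12.3 and 16.1 CPM in ein2-5. Its changes at 3 h were 1.70 ± 0.24 and 1.45 ± 0.25, and at 24 h 0.15 ± 0.23 and 0.11 ± 0.25 with no call.

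GSTU3 (AT2G29470, chr2:12628422-12629640) was near 0 with MS at 3 h. Wild-type libraries at 3 h held 4, 0 and 1 read pairs with MS and 106, 104 and 109 with AA. The ein2-5 libraries held 0 read pairs with MS and 16, 12 and 14 with AA. Taking a floor of 3 counts per library, GSTU3 was at least 4.47-fold higher with AA in ein2-5. Untreated libraries held 40, 7 and 9 read pairs in wild type and 2, 3 and 0 in ein2-5, and wild-type libraries with MS at 24 h held 13, 6 and 11. With AA at 24 h the libraries held 2, 52 and 12 in wild type and 5, 7 and 0 in ein2-5. With AA at 3 h the ein2-5 level was 0.561, 0.487 and 0.565 CPM against 3.91, 3.94 and 4.17 CPM in wild type, and the libraries of the genotypes did not overlap. With so few reads in the MS groups no test value of GSTU3 is printed here, although its calls are part of the family's counts and figures. GSTU3 and GSTU4 were 81.9% identical in coding sequence, and GSTU5 and GSTU6, which had no AA call, 83.5%.

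**Figure D3:**
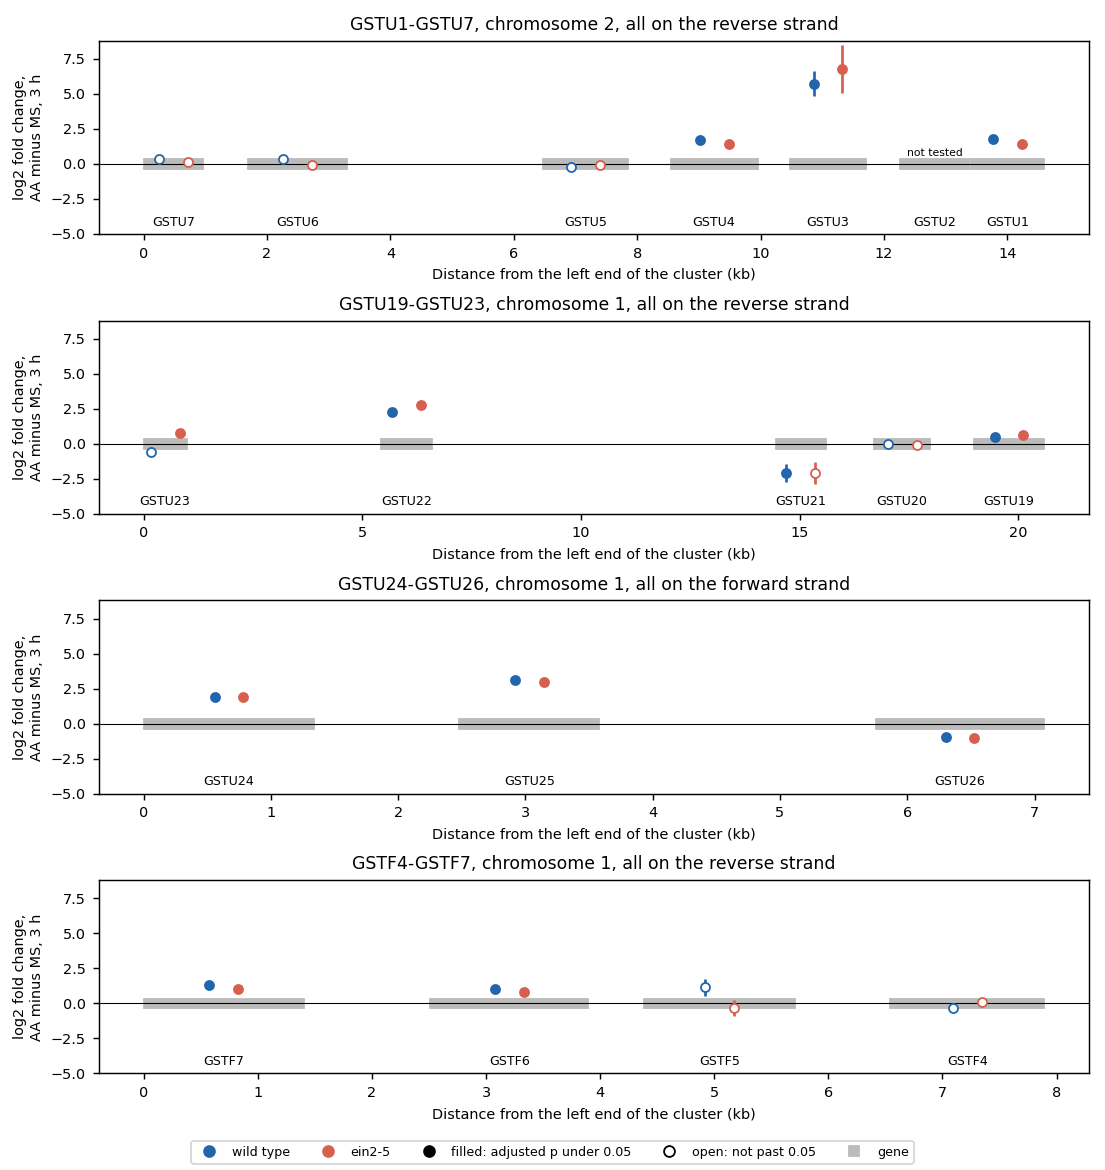
Log2 fold change of AA against MS at 3 h (y axis, with SE) for the members of 4 tandem clusters, drawn over the genes as grey bars at their distance in kb from the left end of the cluster (x axis). Blue is wild type, red is ein2-5, and filled points are called at an adjusted p under 0.05. GSTU24 (1.88 and 1.93) and GSTU25 (3.11 and 2.97) stand above 0 and GSTU26 (-0.98 and -1.04) below it. The GSTU3 values rest on MS groups with 5 read pairs in wild type and 0 in ein2-5 and are no measure of size.

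Of the 9 clusters, 5 held tested members that were higher with AA at some time together with tested members that were not. The clusters GSTU13 to GSTU14, GSTU17 to GSTU18 and GSTF9 to GSTF10 had no member higher with AA. Of the remaining tau genes, GSTU10 (AT1G74590) rose modestly at both times. It stood at 6.09, 7.0 and 6.97 CPM with MS and at 11.0, 11.2 and 13.0 CPM with AA in wild type at 3 h, and at 8.60, 8.01 and 11.8 CPM against 15.3, 18.9 and 20.2 CPM at 24 h. The AA libraries were above the MS libraries at both times, by 0.81 ± 0.16 and 0.94 ± 0.15, and in ein2-5 by 0.62 ± 0.16 and 1.1 ± 0.15. GSTU12 (AT1G69920) stood at 1.06, 0.624 and 1.73 CPM with MS and at 7.42, 4.32 and 6.16 CPM with AA in wild type at 3 h, and at 2.26, 2.02 and 1.81 CPM against 4.69, 7.5 and 9.53 CPM in ein2-5. Its rise was 5.21-fold and 3.56-fold at 3 h. At 24 h it was called in wild type (1.1 ± 0.36, adjusted p = 0.0385), but not without AA replicate 1 or 2 or MS replicate 1 or 2 (adjusted p 0.0811 to 0.132), and in ein2-5 it was -0.16 ± 0.38.

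GSTU8, GSTU16 and GSTU27 had smaller calls. GSTU8 was higher in ein2-5 at 24 h by 0.61 ± 0.13 (adjusted p = 0.00174). GSTU16 was higher in ein2-5 at 3 h by 0.45 ± 0.11 (adjusted p = 0.0044), a call lost in a fit of the 2 groups alone (0.0586). GSTU27 was higher at 24 h by 0.34 ± 0.11 in wild type and 0.45 ± 0.11 in ein2-5. The wild-type call of GSTU27 was lost without any 1 of 5 of the 6 libraries, MS replicate 1 being the exception (adjusted p 0.0618 to 0.151), and its ein2-5 call without AA replicate 1 (adjusted p = 0.0663).

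In the phi class only GSTF7 was called higher with AA in all 4 comparisons. Its near copy GSTF6, which lies beside it, was called higher at 3 h in both genotypes. GSTF6 is known for a step of camalexin synthesis, the main phytoalexin of Arabidopsis. GSTF7 (AT1G02920, chr1:658578-659980) stood at 125, 104 and 113 CPM with MS and at 274, 286 and 282 CPM with AA in wild type at 3 h, and at 233, 246 and 269 CPM against 509.7, 497 and 529 CPM at 24 h. In ein2-5 it stood at 121, 169.5 and 203 CPM with MS and at 281, 327 and 392 CPM with AA at 3 h, and at 300.2, 234 and 351 CPM against 660.2, 706 and 564 CPM at 24 h. No groups overlapped, and the changes were 1.3 ± 0.22 and 1.02 ± 0.22 at 3 h and 1.04 ± 0.22 and 1.13 ± 0.22 at 24 h. GSTF6 (AT1G02930, chr1:661088-662475) stood at 179, 156 and 159.7 CPM with MS and at 302, 377 and 315 CPM with AA in wild type at 3 h, a change of 1.01 ± 0.27 (adjusted p = 0.0118), and rose by 0.85 ± 0.27 in ein2-5 (adjusted p = 0.0332). At 24 h its values were 0.38 ± 0.27 and 0.63 ± 0.27, neither called.

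The GSTF6 call was lost in wild type at 3 h without AA replicate 2 or MS replicate 2 or 3 (adjusted p 0.0507 to 0.0566), and in ein2-5 without AA replicate 3 or MS replicate 1 or 2 (adjusted p 0.105 to 0.163) and with DESeq2 (0.0548). GSTF6 and GSTF7 are 94.7% identical in coding sequence. Although no shared 150-base window was found, their counts were not whole numbers in 11 and 13 of 30 libraries, so some read pairs were shared out between places. Counts of GSTF9 were also not whole in 13 libraries, and those of the near-identical GSTF2 and GSTF3 in 0.

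GSTF2 and GSTF3, the other near-identical pair, differed in level. GSTF2 (AT4G02520), known to respond to ethylene and to bind camalexin, stood at 7.87, 10.8 and 12.0 CPM with MS and at 25.1, 24.6 and 16.8 CPM with AA in wild type at 3 h. It rose 2.17-fold (1.12 ± 0.20, adjusted p = 0.000191). In ein2-5 it stood at 8.82, 9.06 and 10.0 CPM with MS and at 13.1, 12.6 and 13.6 CPM with AA, 0.49 ± 0.21 with an adjusted p of 0.137. GSTF3 (AT2G02930) stayed under 4 CPM in every library. At 3 h it was called higher in wild type (1.81 ± 0.35, adjusted p = 0.000448) and in ein2-5 (1.08 ± 0.36, adjusted p = 0.0465), and at 24 h it was called lower in ein2-5 (-1.11 ± 0.36, adjusted p = 0.037). The ein2-5 call at 3 h was lost without AA replicate 2 or 3 or MS replicate 2 or 3 (adjusted p 0.121 to 0.164), with no filter, with upper-quartile factors and in a fit of the 2 groups alone (0.0505 to 0.101), and the one at 24 h without any 1 library other than AA replicate 1 (adjusted p 0.0619 to 0.200) and in a fit of the 2 groups alone (0.0746).

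**Figure D4:**
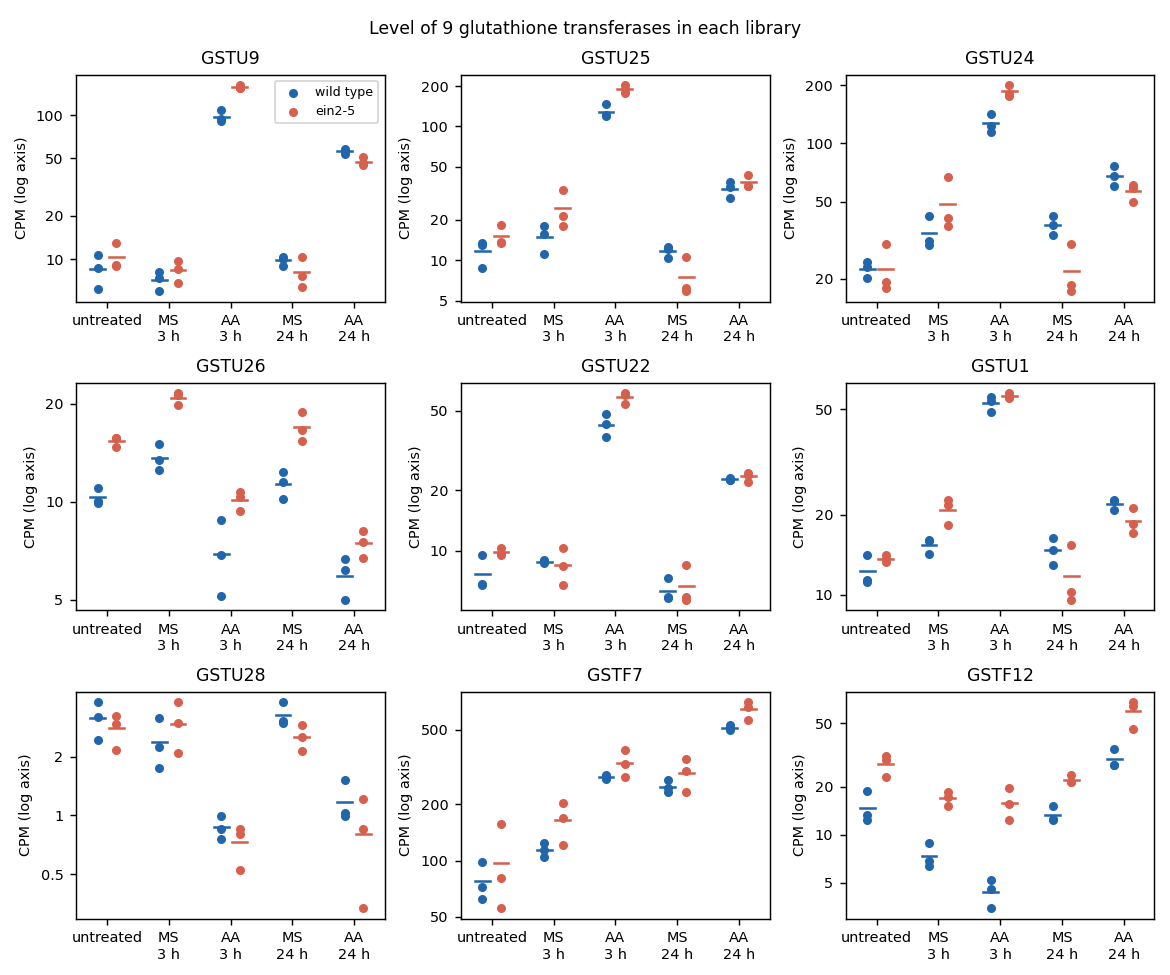
Level of 9 members in CPM (log y axes, each with its own range) in every library, by condition (x axis) with blue for wild type and red for ein2-5. Points are libraries and short lines are means of 3. GSTU9 lies between 91.2 and 162 CPM with AA at 3 h and between 5.98 and 9.71 CPM with MS at 3 h, and GSTF12 is highest with AA at 24 h in ein2-5.

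GSTU28, GSTF14, GSTU14 and GSTU18 were called lower with AA, and 2 members, GSTF3 and GSTF12, were called higher in one AA comparison or more and lower in another. GSTU28 (AT1G53680) stood at 1.74, 3.17 and 2.24 CPM with MS and at 0.849, 0.757 and 0.995 CPM with AA in wild type at 3 h. It was lower by 1.45 ± 0.33 and 2.01 ± 0.33 at 3 h and by 1.49 ± 0.31 and 1.65 ± 0.33 at 24 h, in wild type and ein2-5. GSTF14 (AT1G49860), a phi member that lacks the usual catalytic serine, stood at 46.6, 51.8 and 52.6 CPM with MS and at 29.8, 28.4 and 32.8 CPM with AA in wild type at 3 h, and at 23.1, 23.7 and 25.2 CPM against 17.1, 15.5 and 15.7 CPM at 24 h. It fell by 0.73 and 0.58 on the log2 scale in wild type, and in ein2-5 by 0.36 at 3 h and 0.86 at 24 h. GSTU14 (AT1G27140) was called lower at 24 h, at 1.99, 2.01 and 1.39 CPM with MS against 0.597, 0.546 and 0.221 CPM with AA in wild type (-1.99 ± 0.37), and by -1.44 ± 0.32 in ein2-5. GSTU18 was lower at 24 h in wild type by 0.33 ± 0.10 (adjusted p = 0.0203).

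The ein2-5 call of GSTF14 at 3 h (adjusted p = 0.0348) was lost without AA replicate 3 or MS replicate 1 or 3 (adjusted p 0.0941 to 0.299), and under a stricter filter, with counts rounded down and in a fit of the 2 groups alone (0.0558 to 0.180). The wild-type call of GSTU18 was lost when AA replicate 1 (0.0973) or MS replicate 3 (0.124) was left out. Root markers fell with AA too, 4 of 8 at 3 h in each genotype, and 6 of 8 in wild type and 5 of 8 in ein2-5 at 24 h. Their summed level at 3 h was 103 to 117 CPM with MS and 61.4 to 69.7 CPM with AA in wild type, and 87.1 to 101 CPM against 52.6 to 62.6 CPM in ein2-5. Of 8 leaf markers none was called at 3 h, and 4 in wild type and 5 in ein2-5 were lower at 24 h. Of all genes tested, 3.80% in wild type and 6.22% in ein2-5 were called lower at 3 h, and 6.50% and 7.95% at 24 h. In whole seedlings fewer cells of a type and less RNA per cell cannot be told apart, and the part of root cells in the lower members was not tested.

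GSTF12 (AT5G17220, chr5:5658416-5659661, forward strand) changed direction with time. This gene, also named TT19, encodes the flavonoid-binding transferase needed to bring anthocyanins and proanthocyanidin precursors to the vacuole. In wild type it stood at 8.93, 6.38 and 6.84 CPM with MS and at 4.58, 3.45 and 5.16 CPM with AA at 3 h, and at 12.4, 15.1 and 12.5 CPM against 27.4, 27.3 and 34.7 CPM at 24 h. The AA libraries were thus the lower ones at 3 h (-0.75 ± 0.20, adjusted p = 0.0136) and the higher ones at 24 h (1.16 ± 0.17, adjusted p = 1.6e-05). With AA replicate 2 or MS replicate 1 left out, the 3 h difference was not called (adjusted p 0.115 and 0.128). In ein2-5 the groups overlapped at 3 h (-0.10 ± 0.17), and at 24 h the level was 21.3, 23.6 and 21.4 CPM with MS against 68.3, 64.4 and 46.0 CPM with AA (1.43 ± 0.17, adjusted p = 3.34e-07).

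The difference between the AA effects at 24 h and 3 h was tested directly. In wild type 7 members had a lower log2 effect at 24 h and 1 a higher one (6.50% of all genes called, 3.94% as lower and 2.55% as higher), and in ein2-5 these were 9 and 2 (10.5%, 6.16% and 4.30%). GSTU9 was lower at 24 h by 1.24 ± 0.22 in wild type and 1.68 ± 0.22 in ein2-5, GSTU1 by 1.19 ± 0.18 and 0.73 ± 0.18, and GSTU4 by 1.55 ± 0.34 and 1.34 ± 0.35. GSTU25 was called in wild type, lower by 1.55 ± 0.28, and without MS replicate 3 at 3 h also in ein2-5 (adjusted p = 0.0181). GSTU22 was called in ein2-5, lower by 0.96 ± 0.20. GSTF12 had the larger effect at 24 h in both, by 1.91 ± 0.27 (adjusted p = 9.55e-06) and 1.53 ± 0.24 (adjusted p = 5.01e-05). As 3 h and 24 h are also the labelled batches, time and batch cannot be told apart in these values.

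Of the family's genotype differences, that of GSTF12 was the most regular. In untreated seedlings 3 members were higher in ein2-5 and 0 lower (4.33% of all genes called, 1.51% as higher and 2.82% as lower). With MS 7 were higher and 0 lower at 3 h (10.4%, 5.87% and 4.55%), and 3 higher and 5 lower at 24 h (11.4%, 6.74% and 4.65%). With AA 8 were higher and 2 lower at 3 h (7.82%, 4.86% and 2.95%), and 4 higher and 5 lower at 24 h (9.91%, 5.50% and 4.41%). Over the 5 conditions 21 members were called at least once, 13 of them as higher and 8 as lower, and 0 in both directions. GSTF12 was called in all 5 conditions. It stood at 13.3, 18.7 and 12.3 CPM in untreated wild type and at 23.2, 29.4 and 31.1 CPM in untreated ein2-5, and with AA at 24 h at 27.4, 27.3 and 34.7 CPM against 68.3, 64.4 and 46.0 CPM. In no condition did the genotypes overlap, and ein2-5 was higher by 0.92 ± 0.17 untreated, 1.20 ± 0.19 and 0.73 ± 0.18 with MS at 3 h and 24 h, and 1.85 ± 0.19 and 1.0 ± 0.16 with AA.

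With MS at 3 h the count was 5 in place of 7 without the ein2-5 library that stood apart, a change of under 1.5-fold. In other conditions some counts moved by more than 1.5-fold, or changed in their balance of directions, without 1 library. The untreated count was 5 in place of 3 without wild-type replicate 2 (4 higher and 1 lower) or without ein2-5 replicate 2 (2 higher and 3 lower), and without wild-type replicate 3 it was 2 higher and 2 lower. The count with AA at 3 h was 5 without wild-type replicate 2 (4 higher and 1 lower) and 6 without ein2-5 replicate 1 (4 higher and 2 lower), in place of 10. With MS at 24 h it was 5 without replicate 1 of either genotype (3 higher and 2 lower in each), in place of 8, while without ein2-5 replicate 2 it was 4 higher and 2 lower and without ein2-5 replicate 3 it was 3 higher and 9 lower. With AA at 24 h it was 5 without ein2-5 replicate 2 (1 higher and 4 lower), in place of 9. DESeq2 called 7 members in untreated seedlings.

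GSTU26, one of the members lower with AA, was higher in ein2-5 in 4 of 5 conditions, by 0.57 ± 0.13 untreated, 0.61 ± 0.13 and 0.58 ± 0.13 with MS at 3 h and 24 h, and 0.55 ± 0.14 with AA at 3 h. The last call was lost without AA replicate 2 of wild type (adjusted p = 0.120) or AA replicate 3 of ein2-5 (adjusted p = 0.0539), and in a fit of the 2 groups alone (0.0668). GSTU17 (AT1G10370), known as the dehydration-induced ERD9, was higher in ein2-5 at 3 h with MS (0.38 ± 0.09, lost in a fit of the 2 groups alone, adjusted p = 0.0527) and with AA (0.67 ± 0.09, adjusted p = 1e-05). It stood at 37.3, 35.5 and 28.6 CPM in wild type and at 56.6, 49.2 and 55.1 CPM in ein2-5 with AA at 3 h. GSTU9 was also higher in ein2-5 with AA at 3 h, by 0.68 ± 0.14 (adjusted p = 0.00118), in libraries that did not overlap.

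Lower in ein2-5 were GSTF2 and GSTU4. GSTF2 stood at 49.7, 43.8 and 53.8 CPM in wild type and at 24.2, 30.9 and 27.3 CPM in ein2-5 with MS at 24 h, and at 52.4, 45.8 and 54.7 CPM against 31.6, 31.5 and 20.7 CPM with AA at 24 h. The ein2-5 libraries were the lower ones in both, by 0.84 ± 0.19 and 0.87 ± 0.19, and with AA at 3 h by 0.76 ± 0.20. The call at 3 h was lost without wild-type AA replicate 1 or 2 or ein2-5 AA replicate 2 (adjusted p 0.0540 to 0.0723). GSTF2 was -0.59 ± 0.21 untreated and -0.13 ± 0.21 with MS at 3 h with no call, and the untreated difference was called without ein2-5 replicate 2 (adjusted p = 0.00142). GSTU4 was lower in ein2-5 at 24 h by 1.13 ± 0.25 with MS and 1.17 ± 0.24 with AA. Untreated it was -0.83 ± 0.26 with no call, but called without ein2-5 replicate 2 (adjusted p = 0.000603). GSTF3 was lower in ein2-5 with AA at 24 h by 1.87 ± 0.35 (adjusted p = 0.000458), at 2.89, 2.25 and 3.54 CPM in wild type and 1.09, 0.417 and 0.852 CPM in ein2-5.

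The remaining members were called between genotypes in 1 or 2 of the conditions, other than GSTF9, which was called in 3. GSTF14 was higher in ein2-5 with MS at 24 h, at 39.7, 39.6 and 33.8 CPM against 23.1, 23.7 and 25.2 CPM in wild type (0.65 ± 0.12, adjusted p = 0.000254). GSTU20 was higher with MS at 3 h, at 403, 451 and 461 CPM against 357, 302 and 306 CPM (0.45 ± 0.09, adjusted p = 0.00169), and GSTF9 by 0.45 ± 0.09 there (adjusted p = 0.000921). In these 3 the ein2-5 libraries lay above the wild-type libraries, and no left-out library ended the call. GSTU24 was lower in ein2-5 with MS at 24 h by 0.79 ± 0.20 (adjusted p = 0.00808), lost without wild-type replicate 1 or ein2-5 replicate 1 or 2 (adjusted p 0.0510 to 0.0693). GSTU25 was higher with MS at 3 h by 0.70 ± 0.20 (adjusted p = 0.0217), lost without wild-type replicate 2 or 3 or ein2-5 replicate 3 (0.0563 to 0.291), and with AA at 3 h by 0.57 ± 0.18 (adjusted p = 0.049), lost without any 1 library other than wild-type replicate 3 (0.0783 to 0.180) and with DESeq2 (0.118). GSTU22 was higher with AA at 3 h by 0.45 ± 0.13 (adjusted p = 0.0222), lost without wild-type replicate 1 or 2 or ein2-5 replicate 1 or 3 (0.0655 to 0.160). GSTU14 was higher in ein2-5 with AA at 24 h, at 1.09, 1.17 and 1.26 CPM against 0.597, 0.546 and 0.221 CPM in wild type (1.37 ± 0.39, adjusted p = 0.0197). The groups did not overlap, but the call was lost without wild-type replicate 3 or ein2-5 replicate 2 or 3 (0.0532 to 0.129) and in a fit of the 2 groups alone (0.0513). GSTU12 was lower in ein2-5 with AA at 24 h, at 0.930, 1.0 and 0.812 CPM against 2.43, 2.12 and 1.70 CPM (-1.18 ± 0.36, adjusted p = 0.0312), lost without any 1 library other than wild-type replicate 3 (0.0679 to 0.119). GSTU1 was called higher with MS at 3 h (0.44), GSTU5 and GSTU27 higher with AA at 24 h (0.35 each), GSTU16 lower at 24 h with MS (-0.35) and AA (-0.39), and GSTU7 lower with MS at 24 h (-0.50). Each of these calls was lost without at least 2 of its 6 libraries, left out in turn (adjusted p 0.0533 to 0.249).

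**Figure D5:**
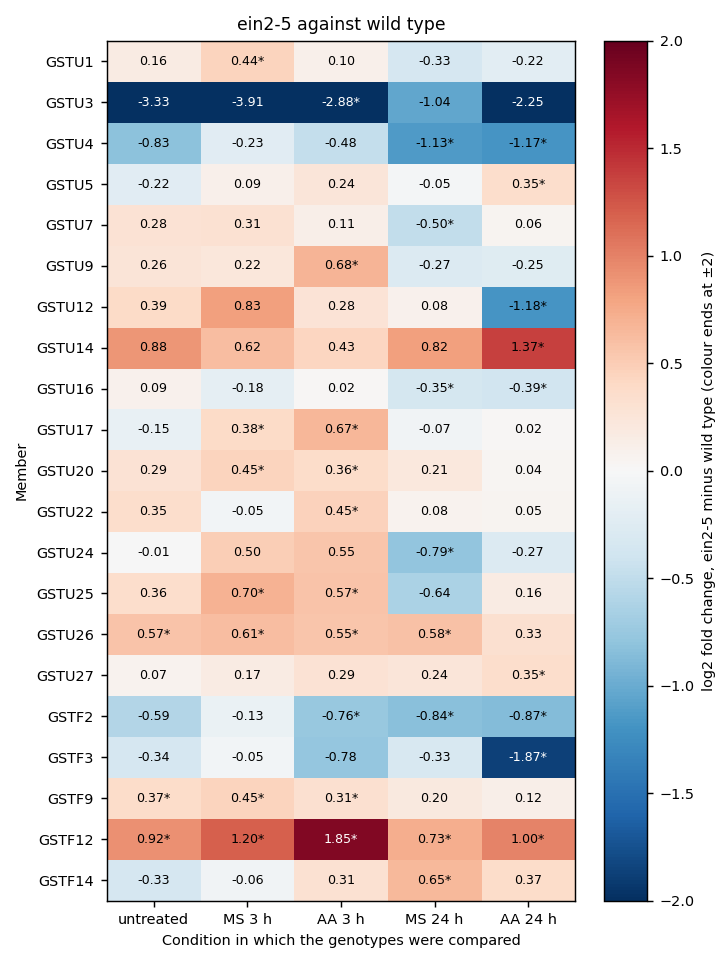
Log2 fold change of ein2-5 against wild type for the 21 members called in at least 1 of 5 conditions (rows) in each condition (columns), with an asterisk at an adjusted p under 0.05. Red is higher and blue lower in ein2-5, and the colour ends at ±2. GSTF12 carries 5 asterisks, with values from 0.73 to 1.85. GSTU3 values rest on few counts, and with MS at 3 h its ein2-5 group is at 0.

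Whether AA acted differently on the members in ein2-5 was tested as an interaction. No member was called at 3 h (0.0706% of all genes called, 0.0282% as higher and 0.0423% as lower) or at 24 h (0.296%, 0.132% and 0.165%) by edgeR or by DESeq2. At 3 h 8 members and at 24 h 6 members had an unadjusted p under 0.05. The share of all genes under that unadjusted p was not counted, so these numbers of members cannot be judged. Without MS replicate 3 of ein2-5 at 24 h the count of called members at 24 h was 1, GSTU7 (adjusted p = 0.0357). The smallest adjusted p at 3 h was that of GSTU23 (0.173, difference 1.36 ± 0.35), and at 24 h that of GSTF3 (0.205, difference -1.54 ± 0.48). For GSTU9 the AA effect was larger in ein2-5 by 0.46 ± 0.22 at 3 h (adjusted p = 0.646), for GSTU22 by 0.51 ± 0.20 (adjusted p = 0.535), and for GSTU25 at 24 h by 0.80 ± 0.29 (adjusted p = 0.319). A miss of the threshold does not show that the genotypes responded alike.

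Covering seedlings with MS, with the time that went with it, also moved the family. At 3 h 10 members were higher and 9 lower than untreated in wild type (33.2% of all genes called, 15.8% as higher and 17.4% as lower), and 12 and 7 in ein2-5 (31.7%, 17.3% and 14.4%). At 24 h these were 11 and 4 in wild type (19.9%, 8.78% and 11.1%) and 6 and 5 in ein2-5 (15.0%, 8.44% and 6.57%). GSTU20, GSTF6 and GSTF9 were higher in all 4 comparisons, and GSTU5 and GSTU27 lower in all 4. GSTU20 stood at 189, 224 and 194 CPM untreated and at 357, 302 and 306 CPM with MS at 3 h in wild type (0.67 ± 0.09). GSTF9 rose by 0.66 ± 0.09 and 0.74 ± 0.09 at 3 h and by 0.54 ± 0.09 and 0.36 ± 0.09 at 24 h, in wild type and ein2-5.

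GSTF6, GSTF7 and GSTF2 had the largest rises among the called members at 24 h with MS, by 1.94 ± 0.28, 1.68 ± 0.23 and 1.64 ± 0.20 in wild type and by 1.62 ± 0.27, 1.59 ± 0.23 and 1.39 ± 0.20 in ein2-5. At 3 h in ein2-5 the GSTF6 value of 0.82 ± 0.27 rested on libraries that overlapped, and its call was lost without MS replicate 3 or untreated replicate 1 or 3 (adjusted p 0.121 to 0.183) and in a fit of the 2 groups alone (0.192). GSTU5 (AT2G29450), an auxin-induced tau gene, fell. It stood at 132, 165 and 150.4 CPM untreated and at 55.4, 56.5 and 61.8 CPM with MS at 3 h in wild type (-1.37 ± 0.10, adjusted p = 2.15e-12). GSTU17 had the sharpest passing fall. It went from 134, 168 and 151 CPM untreated to 37.3, 42.5 and 38.9 CPM with MS at 3 h in wild type (-1.93 ± 0.09) and fell by 1.41 in ein2-5 (SE 0.09), and at 24 h it was at 138, 136 and 138 CPM in wild type with no call.

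GSTU27 fell in wild type by 0.40 at 3 h and 0.52 at 24 h, and in ein2-5 by 0.30 and 0.35. Its calls at 3 h were lost without MS replicate 1 in wild type (adjusted p = 0.0659), and in ein2-5 without MS replicate 2 or 3 or untreated replicate 1 or 3 (adjusted p 0.0521 to 0.288) or in a fit of the 2 groups alone (0.111). The ein2-5 call at 24 h was lost without MS replicate 2 or 3 or untreated replicate 1 or 3 (adjusted p 0.0843 to 0.142). Within a genotype the comparisons at 3 h and 24 h share the untreated libraries, so they are not separate evidence.

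Genes that work beside the tau and phi enzymes were read from lists chosen with earlier results of these data known. Of all genes tested with AA at 3 h, 6.20% were called higher and 3.80% lower in wild type, and 6.62% and 6.22% in ein2-5. At 24 h these shares were 6.48% and 6.50% in wild type and 5.90% and 7.95% in ein2-5. In lists this short a count of 1 or 2 is too small to set against them. Of 10 other detoxification enzymes and transporters, 8 were higher with AA at 3 h in each genotype, and 5 were higher and 1 lower in wild type and 7 higher in ein2-5 at 24 h. Among them DTX3, a MATE transporter, rose by 5.28 ± 0.60 and 5.26 ± 0.57 at 3 h, and the cytochrome P450 gene CYP81D8 by 3.87 ± 0.31 and 3.58 ± 0.30. The glucosyltransferase genes UGT73B4 (2.37 ± 0.18 and 2.35 ± 0.18) and UGT74E2 (3.45 ± 0.55 and 3.45 ± 0.54) rose as well. Of 4 transporters of glutathione conjugates, ABCC2 (0.60 ± 0.10 and 0.67 ± 0.10) and ABCC3 (2.05 ± 0.26 and 1.85 ± 0.25) were higher at 3 h.

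Of 8 regulators of detoxification, 4 were higher in wild type and 5 in ein2-5 at 3 h, and 1 and 4 at 24 h. ANAC081, a NAC transcription factor, rose by 1.73 ± 0.10 and 2.1 ± 0.10 at 3 h, and SCL14, the partner of TGA factors on detoxification promoters, by 0.38 ± 0.08 and 0.55 ± 0.08. TGA2, TGA5 and TGA6 were not called in any AA comparison. Of 12 genes of other glutathione transferase classes, 2 were higher at 3 h in each genotype, and at 24 h 3 were higher in wild type and 4 higher and 1 lower in ein2-5. DHAR2, a dehydroascorbate reductase, rose by 0.65 ± 0.16 and 0.92 ± 0.16 at 3 h, and the lambda-class GSTL1 by 1.69 ± 0.21 and 0.98 ± 0.20 at 24 h.

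Of 7 tested genes of glutathione synthesis, reduction and breakdown, 2 were higher in wild type and 1 in ein2-5 at 3 h, and at 24 h 1 was higher and 1 lower in each. GSH1, which makes the first committed step of glutathione synthesis, was 0.13 ± 0.07 and -0.06 ± 0.07 at 3 h with no call. GR1, a glutathione reductase, rose at 24 h by 0.35 ± 0.07 and 0.50 ± 0.07, and PCS1, phytochelatin synthase, at 3 h by 0.55 ± 0.11 and 0.52 ± 0.11. The TGACG core was in the upstream window of 7 of the 13 tau and phi members higher at 3 h in both genotypes (53.8%) and of 10 of the 25 other tested members (40.0%), given here as a description. These 7 include GSTU3, whose MS groups at 3 h held few read pairs.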

How the data were processed

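The authors deposited 1 table of expected counts, fractional read-pair counts per gene not scaled to depth. Per the file headers, featureCounts 2.0.3 counted read pairs over exons of a TAIR10 annotation, without strand, with pairs that map to several places shared out. The build TAIR10 and the tools HISAT2, SAMtools, DESeq2, DESeq and featureCounts are named in the submitters' processing notes. Of the values 6.31% were not whole, and all were rounded to whole counts here.

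Libraries were grouped by the labels' genotype, treatment and time. Genes were kept with filterByExpr (minimum count 10), scaled with TMM and tested with edgeR 4.0.16 in R 4.3.3 (quasi-likelihood F test, 1 mean per group, Benjamini-Hochberg over all genes) in 17 comparisons. Replicate numbers did not pair the libraries (mean residual correlation -0.004 for the same number against 0.002 for different numbers), so no block was used. Positions, coding sequences and upstream windows came from RefSeq's TAIR10.1, with Biopython 1.88 for alignments. Members and lists were chosen with earlier results of these data known. Values per library were given for some members called with AA whose higher group averaged 5 CPM or more. They were also given for some called in other comparisons with no overlap of libraries. The rest, among them GSTU8, GSTU16, GSTU18 and GSTU27 with AA, were given by change or count alone. Lower members, GSH1 and the TGA genes were added after their values were seen. The code was tested on simulated data. Library totals limit precision, and intervals from replicates cover these libraries only.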

Additional observations from a re-analysis of the deposited data

How the results depend on the processing

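The calls were repeated with DESeq2 1.42.0, with upper-quartile or RLE factors, with a filter of at least 1 CPM in 3 libraries or none, with counts rounded down, at an adjusted p under 0.01, in fits of only the groups compared, with a replicate block, and with each library left out in turn. Of 188 member calls in the 17 comparisons, 131 held under every alternative other than an adjusted p under 0.01, which 49 calls did not reach, and no member's called value changed sign. Of 68 calls of AA against MS, 54 held in this way. For ein2-5 against wild type, 3 untreated members became 5 with upper-quartile factors and 7 with DESeq2, and 7 with MS at 3 h became 4 in a fit of only the groups compared. At an adjusted p under 0.01 the counts were 4 in place of 10 (AA, 3 h), 4 in place of 9 (AA, 24 h), and for the AA effect by time 5 in place of 8 in wild type and 6 in place of 11 in ein2-5. A fit of only the groups compared gave 13 in place of 8 for the AA effect by time in wild type, and 16 higher members in place of 10 for AA against MS there at 24 h. The cause was not tested. Leaving out 1 library gave 16 to 19, 14 to 17, 12 to 14 and 15 to 17 calls for AA against MS (wild type 3 h, ein2-5 3 h, wild type 24 h, ein2-5 24 h). It gave 2 to 5 for ein2-5 against wild type untreated, 5 to 10 and 5 to 12 with MS at 3 h and 24 h, and 5 to 9 and 5 to 7 with AA. For MS against untreated it gave 15 to 18 and 15 to 20 at 3 h and 11 to 15 and 9 to 15 at 24 h, for AA by genotype 0 to 0 and 0 to 1, and for AA by time 7 to 10 and 8 to 13. With the replicate number as a block the counts for AA against MS were 19, 18, 15 and 16, as without it, and the largest change in any comparison was of 1 call, with no call lost but GSTF14 in AA by time in ein2-5 (adjusted p = 0.0599). The largest shift of the median gene under another scaling was 0.047 on the log2 scale. Depth limits the members under 1 CPM in some libraries, such as GSTU3, GSTU11, GSTU21 and GSTF5.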
